A study of Mus musculus with 7 samples.

Results

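Nuclear factor kappa B (NF-kB) is a family of dimeric transcription factors. Described here are 10 of its genes, chosen by symbol from the 52224 genes of the deposited table with their values in these libraries already known: the 5 subunits Nfkb1, Nfkb2, Rel, Rela and Relb, and 5 genes that restrain or modulate them, Nfkbia, Nfkbib, Nfkbie, Tnfaip3 and Bcl3. Because that choice used the measured values, the members are described without p-values, and counts of members called by a test stand beside the share or number of all genes called. All 10 passed the filter on low values (2 or more libraries at an FPKM of 1 or higher), as did 13865 genes in all. The libraries were made from haematopoietic stem cells, sorted as CD48-CD150+LSK cells from bone marrow of wild-type C57BL/6J mice and kept for 48 h with the solvent DMSO (n = 3), with gemcitabine at 0.5 µM (Gem, n = 2) or with 100 µM hydroxyurea (HU, n = 2). Both drugs stall DNA replication, the first as a nucleoside analogue and the second as an inhibitor of ribonucleotide reductase. All groups share the genotype, the sort and the culture, and no uncultured library was analysed here.

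In resting cells NF-kB dimers are held in the cytoplasm by inhibitor proteins of the I kappa B family, and a kinase complex releases them when it marks the inhibitor for destruction. In the canonical route, ligands such as TNF and interleukin 1 lead to loss of I kappa B alpha and entry of dimers of p65 (Rela) or c-Rel (Rel) with p50 (Nfkb1) into the nucleus. In the non-canonical route the kinase NIK drives the cutting of p100, the product of Nfkb2, to p52, which pairs with Relb. Uncut p100 also acts as an inhibitor, since its C-terminal part resembles an I kappa B protein. Several of these genes are themselves NF-kB targets, which makes the system self-limiting, and in haematopoietic stem cells the pathway is known for its part in quiescence, inflammation and myeloid output.

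The values are FPKM, fragment counts corrected for transcript length and for the number of fragments mapped in the library, so levels can be compared between genes. The number of reads per library is unknown. The FPKM sum of a DMSO library lay between 818775 and 832979, that of a Gem library between 703016 and 729258 and that of a HU library between 647760 and 651315. Genes above 0 numbered 21251 to 23047, 27887 to 29158 and 29687 to 31153. The median log2 fold change of all tested genes against DMSO was -0.25 in Gem and -0.30 in HU, so each change of a member is also given after trimmed-mean scaling, which brought these medians to 0.013 and 0.019. Library DMSO 3 stood apart from the other DMSO libraries. It was high in Il1a (21.38 FPKM against 4.67 and 3.53), a gene singled out after its values were seen. Of the 3 it was lowest in the summed neutrophil, megakaryocyte, mast cell, erythroid and lymphoid markers. In the summed stem cell, monocyte and macrophage, and dendritic cell markers it was the highest. The members' differences against DMSO are given with and without it. Of 10 stem cell markers 6 averaged at least 1 FPKM, and Slamf1, Mecom, Fgd5 and Hoxb5 averaged less, while the list summed to 231.7 to 244.3 FPKM for DMSO, 187.9 to 208.0 for Gem and 173.1 to 175.5 for HU. All 10 monocyte and macrophage markers averaged at least 1 FPKM. Their sum was 1187 to 1296 for DMSO libraries, 935.6 to 979.4 for Gem and 862.3 to 959.4 for HU, and 0 of the 10 were at 0 in all libraries. The neutrophil markers summed to 11348 to 18243, 12176 to 15121 and 11394 to 11900, with 9 of 10 averaging at least 1. Megakaryocyte and platelet markers (6 of 6) summed to 1738 to 2815, 1705 to 1801 and 1359 to 1556, and mast cell and basophil markers (5 of 7) to 281.3 to 1356, 220.1 to 402.4 and 199.2 to 204.4. Erythroid markers (5 of 7) summed to 52.4 to 98.6, 24.0 to 32.2 and 32.1 to 33.9, lymphoid markers (2 of 8) to 55.3 to 88.6, 35.8 to 51.7 and 43.0 to 45.2, and dendritic cell markers (7 of 8) to 605.2 to 755.0, 555.9 to 574.8 and 575.9 to 708.6. In all 8 lists 0 markers were at 0 in every library. The part of such cells in the members' levels was not tested. In bulk RNA, fewer cells of a type and less RNA per cell cannot be told apart. Whether the libraries of a group are from different mice or cultures is not stated in the labels, and errors and p-values therefore reflect the spread among these 7 libraries alone.

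The start regions of the members carry matches to the kappa-B consensus, the sequence that NF-kB dimers bind. They are shown because Nfkb2, the member that differed most between groups, has 3 annotated start windows with a match in each. RefSeq windows of 300 bases (250 before and 50 after a start site, build GRCm38.p6) matched 8 of the 10 members by symbol, in 11 windows. Nfkb1 and Relb were not matched. The kappa-B consensus was searched on both strands and found in 8 of the 11 windows, those of 6 genes, against 8.46% of all 32851 windows of this length. The members' windows held 47.0% to 75.0% G and C bases, against a median of 52.7% over all windows. The shares of all windows given here and below were not matched for this. Each match stands below in capitals within 30 bases of the gene's strand, 5′ to 3′.

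Nfkb2 start 1, chr19:46304688-46304717: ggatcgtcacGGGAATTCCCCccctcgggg
Nfkb2 start 1, chr19:46304716-46304745: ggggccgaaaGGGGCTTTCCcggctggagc
Nfkb2 start 2, chr19:46305449-46305478: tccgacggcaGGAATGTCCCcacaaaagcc
Nfkb2 starts 2 and 3, chr19:46305695-46305724: tggtattttcGGGACTTTCCtaagcagcac
Rel, chr11:23771042-23771071: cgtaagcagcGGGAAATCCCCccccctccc
Nfkbia, chr12:55492657-55492686: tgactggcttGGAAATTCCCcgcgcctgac
Nfkbie, chr17:45555584-45555613: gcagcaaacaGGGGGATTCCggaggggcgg
Tnfaip3, chr10:19015516-19015545: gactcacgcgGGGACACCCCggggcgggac
Tnfaip3, chr10:19015403-19015432: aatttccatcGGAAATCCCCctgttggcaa
Bcl3, chr7:19822734-19822763: tcggcggcagGGGAAGTCCCgctgcccggc

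Counted from the start site, with bases before it negative, the matches at start 1 of Nfkb2 began at -39 and -11. The windows of its starts 2 and 3 overlap and share 1 match, which began at 10 from start 2 and at -225 from start 3, and start 2 has another at -236. The match began at -29 in Nfkbia, at -92 in Rel, at -106 in Nfkbie, at -125 and -12 in Tnfaip3 and at 2 in Bcl3. The windows of Rela and Nfkbib held no match, which says only that these letters are not in those 300 bases. An AP-1 site, TGANTCA, was found in 3 of the 11 windows, one each of Nfkb2, Nfkbie and Tnfaip3, against 7.81% of all windows. The GC box GGGCGG was found in 8 windows of 7 genes, every matched member but Nfkbib, against 35.7% of all windows. Matches of different motifs overlapped in 0 cases. Nfkb2 and Bcl3, the members with the highest and the lowest log2 difference in HU, both hold a kappa-B match.

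**Figure D1:**
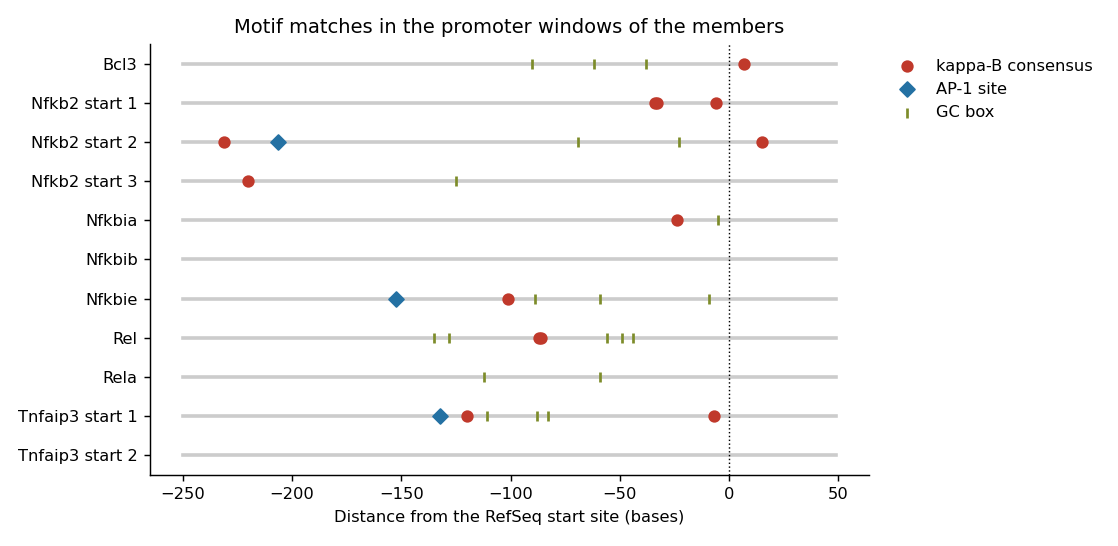
Position of kappa-B, AP-1 and GC box matches in the RefSeq start windows of 8 members, in bases from the start site (x axis), with 1 row per window. In Nfkb2 the matches at -11 from start 1 and at 10 from start 2 lie closest to a start, and the windows of Rela and Nfkbib show no kappa-B match.

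In DMSO the inhibitor Nfkbia was the most abundant member and Rel the least. Nfkbia, which encodes I kappa B alpha, stood at 185.7 ± 20.7 FPKM (SD, n = 3), followed by Nfkbib (I kappa B beta) at 58.7 ± 2.72 and Rela at 48.4 ± 1.76. The libraries of these 3 genes overlapped neither each other nor those of the next gene, Nfkb1, at 32.6 ± 2.56. Nfkb1, Nfkb2 (24.0 ± 6.98), Nfkbie (I kappa B epsilon, 22.2 ± 2.79), Relb (16.8 ± 3.02) and Tnfaip3 (15.6 ± 3.13) formed a run in which the libraries of neighbours overlapped. Bcl3 at 11.1 ± 0.404 and Rel at 6.55 ± 0.311 stood apart below them. With either drug Nfkb2 stood at the level of Nfkbia, above the other 8.

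Nfkb2 encodes p100, the precursor of p52. Its FPKM was 19.14, 20.95 and 32.04 in DMSO, 114.59 and 119.16 in Gem, and 120.19 and 122.8 in HU. All 4 drug libraries lay far above the highest DMSO library, and the Gem and HU libraries lay close to each other. The mean was 116.9 ± 3.23 (SD, n = 2) in Gem and 121.5 ± 1.85 (n = 2) in HU, 4.86 and 5.05 times the DMSO mean. On the log2(FPKM + 1) scale Nfkb2 was higher by 2.27 ± 0.19 (SE) in Gem and by 2.33 ± 0.19 in HU. After scaling the differences were 2.57 ± 0.20 and 2.68 ± 0.20, and as deposited without DMSO 3 they were 2.49 and 2.54. Among 13865 tested genes it ranked 31 from the highest fold change in Gem and 58 in HU. Its place by level within a library, which no scaling factor moves, went from above 65.3%, 67.3% and 76.7% of tested genes in DMSO to above 94.7% and 95.2% in Gem and 95.7% in both HU libraries.

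Nfkb2 lies at chr19:46304320-46312385 on the plus strand (GRCm38, GENCODE M21) with 4584 exonic bases. Reads are not stated to carry strand, and 299 bases of its gene span overlap the span of Psd on the opposite strand. The gene AC114539.1, which had no row under that name, overlaps 1292 bases of it. These are overlaps of whole gene spans, and whether the shared bases are exonic was not measured. Psd stood at 1.61 to 2.73 FPKM in DMSO and 2.38 to 4.43 with the drugs, far below Nfkb2. The table lists 12 other genes within 100 kb of Nfkb2, of which 9 were tested. By limma with Benjamini-Hochberg adjustment 0 of these 9 were higher in either drug. Cuedc2 fell, by 0.58 on the log2 scale in Gem (adjusted p = 0.00672) and by 0.66 in HU (adjusted p = 0.00144), and Mfsd13a and Actr1a also fell in both. After scaling 0 of these 3 were called in Gem, and Cuedc2 was called in HU (-0.29, adjusted p = 0.0482).

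**Figure D2:**
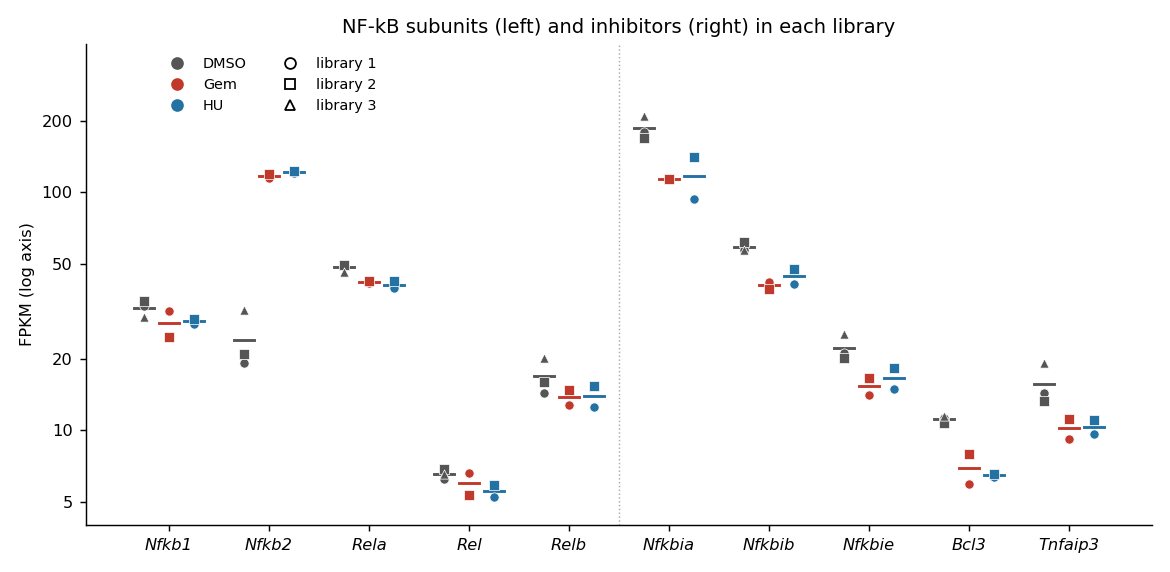
FPKM of each member (y axis, log scale) in each library, coloured by group and shaped by library number, with the group mean as a line; subunits stand left of the dotted line and inhibitors right of it. Nfkb2 is the only member whose drug libraries lie above all its DMSO libraries as deposited, at 114.59 to 122.8 against 19.14 to 32.04.

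The other subunits stayed near their DMSO level, and the direction of each depended on the scaling. Rela encodes p65, the subunit that carries most of the activating function. Its FPKM was 49.26, 49.59 and 46.39 in DMSO, 41.52 and 42.4 in Gem, and 39.6 and 42.22 in HU. As deposited all 4 drug libraries lay below DMSO, with log2 differences of -0.20 ± 0.07 (SE) in Gem and -0.24 ± 0.07 in HU, smaller than the median shift of all genes. After scaling they lay above it instead, at 44.0 and 46.8 in Gem and 45.3 and 47.1 in HU against 41.5 to 43.0 in DMSO. The scaled differences turned to 0.10 ± 0.07 and 0.12 ± 0.07. How many of all genes lay wholly above DMSO after scaling was not computed. As deposited without DMSO 3 the differences were -0.23 and -0.27.

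Nfkb1 encodes p105, the precursor of p50. It stood at 33.2, 34.88 and 29.86 FPKM in DMSO, 31.8 and 24.61 in Gem, and 28.07 and 29.25 in HU. As deposited Gem overlapped DMSO, and HU lay below it by little. The log2 differences of -0.21 ± 0.12 (SE) and -0.18 ± 0.12 became 0.08 ± 0.11 and 0.18 ± 0.11 after scaling, and were -0.27 and -0.24 as deposited without DMSO 3. Rel, which encodes c-Rel, stood at 6.25, 6.87 and 6.53 FPKM in DMSO, 6.63 and 5.34 in Gem, and 5.26 and 5.88 in HU. Its differences were -0.12 ± 0.13 and -0.20 ± 0.13, 0.15 ± 0.12 and 0.11 ± 0.12 after scaling, and -0.12 and -0.20 as deposited without DMSO 3. As deposited with all libraries Gem overlapped DMSO for Rel, while both HU libraries lay below it. After scaling the HU libraries of both genes lay above DMSO instead, while Gem still overlapped it. Scaled Nfkb1 stood at 32.1 and 32.6 in HU against 26.7 to 30.2 in DMSO, and scaled Rel at 6.02 and 6.56 against 5.40 to 5.95. The share of all genes lying wholly above DMSO after scaling was not computed.

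Relb is the usual partner of p52, so it is the member whose level can be set most directly beside that of Nfkb2. It stood at 14.36, 15.97 and 20.2 FPKM in DMSO, 12.77 and 14.82 in Gem, and 12.48 and 15.29 in HU. Both drugs overlapped DMSO. Its log2 differences were -0.26 ± 0.16 (SE) in Gem and -0.25 ± 0.16 in HU, and 0.03 ± 0.17 and 0.09 ± 0.17 after scaling. As deposited without DMSO 3, its highest library, they were -0.13 and -0.12. The ratio of Nfkb2 to Relb within a library, which scaling leaves unchanged, was 1.33, 1.31 and 1.59 in DMSO, 8.97 and 8.04 in Gem, and 9.63 and 8.03 in HU. The ratio of Nfkb2 to Nfkb1, the other precursor gene, went from 0.75 ± 0.28 (SD, n = 3) to 4.22 ± 0.88 (n = 2) in Gem and 4.24 ± 0.059 (n = 2) in HU. In DMSO 1 and DMSO 2 Nfkb1 was the more abundant precursor mRNA, and in every drug library Nfkb2 was.

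**Figure D3:**
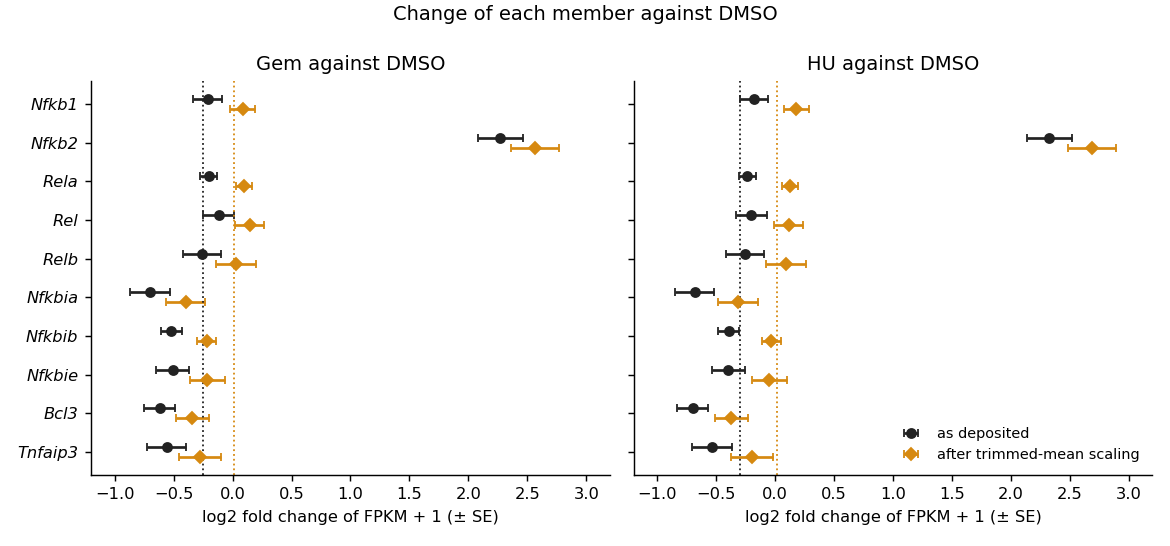
Log2 fold change of FPKM + 1 (x axis, ± SE) of each member in Gem and HU against DMSO, as deposited (black circles) and after trimmed-mean scaling (orange diamonds), with dotted lines at the median of all tested genes on each scale. Nfkb2 lies at 2.27 and 2.33 as deposited, the other 9 members lie below 0, and after scaling Nfkb1, Rel, Rela and Relb lie above 0 in both drugs.

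As deposited the libraries of all 5 inhibitors lay below DMSO in both drugs, where 50.4% of all tested genes did in Gem and 53.9% in HU. After trimmed-mean scaling 3 in Gem (Bcl3, Nfkbia and Nfkbib) lay wholly below DMSO, where 17.1% of genes did, and 1 in HU (Bcl3), where 19.7% did, and the rest overlapped DMSO. Nfkbia encodes the inhibitor that is destroyed and remade within each canonical response. It stood at 179.23, 168.88 and 208.84 FPKM in DMSO, 113.2 and 113.49 in Gem, and 93.81 and 140.61 in HU. All 4 drug libraries lay below DMSO, with the HU libraries far apart. Its log2 difference was -0.70 ± 0.17 (SE) in Gem and -0.68 ± 0.17 in HU, and -0.40 ± 0.17 and -0.32 ± 0.17 after scaling. Without DMSO 3 the values as deposited were -0.61 and -0.59. By place within a library Nfkbia hardly moved, from above 95.2% to 96.3% of tested genes in DMSO to above 94.4% to 96.2% with the drugs. After scaling HU overlapped DMSO, at 107.3 and 156.9 against 146.4 to 186.7.

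Nfkbib encodes I kappa B beta, which is remade more slowly. It stood at 57.26, 61.81 and 56.96 FPKM in DMSO, 41.95 and 39.29 in Gem, and 41.23 and 47.71 in HU, below DMSO in all 4 drug libraries. Its log2 differences were -0.52 ± 0.09 (SE) and -0.39 ± 0.09. After scaling -0.22 ± 0.08 was left in Gem and -0.033 ± 0.08 in HU, and quantile normalization gave 0.081 in HU. As deposited without DMSO 3 the differences were -0.54 and -0.42. The gene spans of Nfkbib and Sirt2, on opposite strands, overlap by 778 bases, and whether these are exonic was not measured. Sirt2 stood at 71.13 to 77.99 FPKM in DMSO and at 51.15 to 59.3 with the drugs, and reads of both could be mixed in either value.

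Nfkbie encodes I kappa B epsilon, known for binding p65 and c-Rel. It stood at 21.04, 20.12 and 25.35 FPKM in DMSO, 14.06 and 16.5 in Gem, and 14.84 and 18.32 in HU. No drug library reached the lowest DMSO library as deposited, and after scaling both drugs overlapped DMSO. Its log2 differences were -0.51 ± 0.14 (SE) and -0.40 ± 0.14, -0.22 ± 0.15 and -0.049 ± 0.15 after scaling, and -0.41 and -0.30 as deposited without DMSO 3.

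Bcl3 and Tnfaip3 are regulators of other kinds. Bcl3 encodes an I kappa B protein found in the nucleus, which binds p50 and p52 homodimers and can activate or repress. Its FPKM was 11.3, 10.68 and 11.44 in DMSO, 5.96 and 7.98 in Gem, and 6.38 and 6.56 in HU. The DMSO libraries lay close together and all 4 drug libraries lay below them, also after scaling, where DMSO stood at 9.26 to 10.2, Gem at 6.32 and 8.82 and HU at 7.30 and 7.32. The log2 differences were -0.62 ± 0.13 (SE) and -0.70 ± 0.13, -0.34 ± 0.14 and -0.37 ± 0.14 after scaling, and -0.60 and -0.68 as deposited without DMSO 3. The ratio of Bcl3 to Nfkb2 was 0.486 ± 0.12 (SD, n = 3) in DMSO, 0.059 ± 0.011 (n = 2) in Gem and 0.0533 ± 0.00024 (n = 2) in HU. Tnfaip3 encodes A20, an enzyme that edits ubiquitin chains and ends signalling from TNF and Toll-like receptors. It stood at 14.35, 13.32 and 19.18 FPKM in DMSO, 9.2 and 11.18 in Gem, and 9.63 and 11.06 in HU. Both drugs lay below DMSO as deposited and overlapped it after scaling. Its differences were -0.56 ± 0.17 and -0.54 ± 0.17, -0.28 ± 0.18 and -0.20 ± 0.18 after scaling, and -0.41 and -0.39 as deposited without DMSO 3.

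Set against Rela of the same library, a ratio that scaling leaves unchanged, the inhibitors had lower means with both drugs. Rela itself fell less than the median of all genes and after scaling lay above DMSO in all drug libraries, which lowers ratios to it. The share of all genes whose ratio to Rela lay below DMSO was not computed. The ratio of Nfkbia to Rela was 3.64, 3.41 and 4.5 in DMSO, 2.73 and 2.68 in Gem, and 2.37 and 3.33 in HU. Those of Nfkbib, Bcl3 and Tnfaip3 to Rela lay below all DMSO libraries in both drugs. The Nfkbie to Rela ratio, 0.46 ± 0.076 (SD, n = 3) in DMSO, lay below it in Gem and overlapped it in HU. The ratios of Nfkb1, Rel and Relb to Rela overlapped DMSO in both drugs.

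The makeup of the 10 mRNAs as a set differed between DMSO and drug libraries most in the shares of Nfkb2 and Nfkbia. A rise of Nfkb2 alone lowers the share of every other member, so the share of Nfkbia overstates its own fall. Without Nfkb2 the members summed to 382.1 to 424.8 FPKM in DMSO, 275.6 and 277.1 in Gem, and 251.3 and 316.9 in HU. Nfkb2 made up 4.72%, 5.20% and 7.01% of the members' summed FPKM in DMSO, 29.3% and 30.2% in Gem, and 32.4% and 27.9% in HU. Nfkbia went from 43.9% ± 1.92 (SD, n = 3) to 28.9% and 28.75% in Gem and 28.6% ± 4.76 (n = 2) in HU. The 5 subunits together held 122.2 to 135.0 FPKM in DMSO, 206.3 and 207.3 in Gem and 205.6 and 215.4 in HU. This rise is that of Nfkb2, since each other subunit had a lower mean with the drugs as deposited. The 5 inhibitors together held 274.8 to 321.8 in DMSO, 184.4 and 188.4 in Gem and 165.9 and 224.3 in HU. As deposited all 10 together held 403.1 to 456.8 in DMSO, 391.7 and 394.8 in Gem, both below DMSO, and 371.5 and 439.7 in HU, which overlapped it. All these sums are as deposited. Trimmed-mean scaling divides them by 1.1187 to 1.1573 in DMSO and by 0.8744 to 0.9434 with the drugs. This raises the drug sums relative to DMSO, and the order of the sums of all 10 is not kept.

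**Figure D4:**
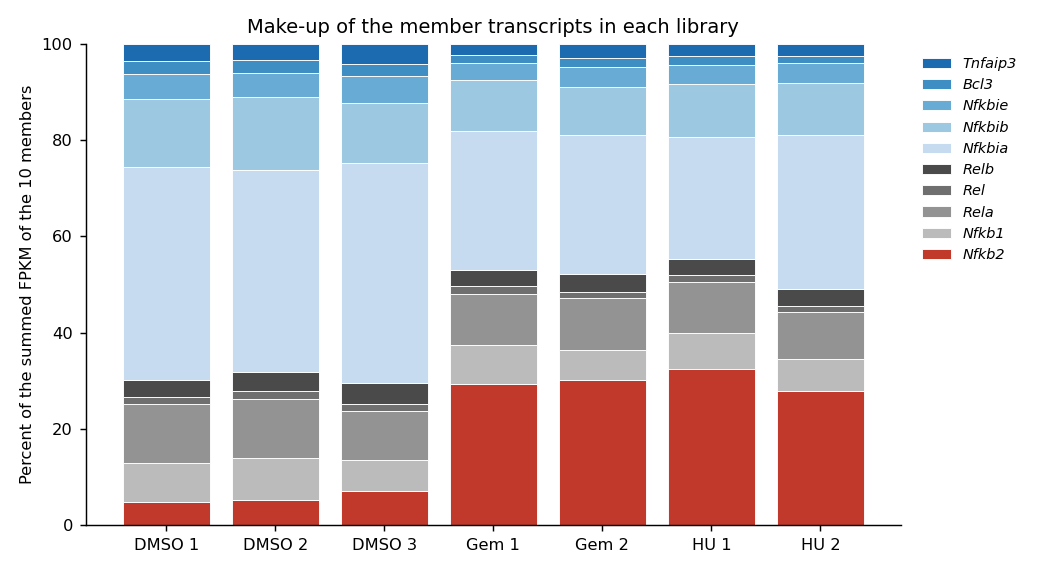
Share of each member in the summed FPKM of the 10 members (y axis, percent) in each library (x axis), as stacked bars. Nfkb2 takes 4.72% to 7.01% in DMSO and 27.9% to 32.4% with the drugs, while Nfkbia takes 41.9% to 45.7% in DMSO and 25.3% to 32.0% with the drugs.

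Calls by limma (Benjamini-Hochberg adjusted p below 0.05 over all tested genes) describe the members as follows. In Gem 1 member was called higher, Nfkb2, where 1.5% of all tested genes were, and 5 were called lower (Bcl3, Nfkbia, Nfkbib, Nfkbie and Tnfaip3), where 23.2% were. In HU 1 was called higher, again Nfkb2, where 4.46% of genes were, and 5 lower (Bcl3, Nfkbia, Nfkbib, Rela and Tnfaip3), where 35.5% were. After scaling Nfkb2 was the 1 member called in either drug, beside 0.483% of genes called higher and 0.454% lower in Gem, and 4.75% higher and 5.28% lower in HU. The count of lower members was then 0 in both, with 3 in Gem and 1 in HU at an unadjusted p below 0.05. The share of all genes at that unadjusted threshold was not computed. In Gem the libraries of 1 member lay wholly above DMSO (5.94% of all genes did) and those of 6 wholly below (50.4% did). In HU the counts were 1 above (8.24% of genes) and 8 below (53.9%). Since the same contrasts chose the members, nothing is read from these counts. Several lower calls were lost when 1 library was left out, together with calls over all genes. In Gem, where 6 members and 3421 genes were called, 0 members and 13 genes were called without Gem 2, 2 and 1555 without Gem 1, 2 and 1525 without DMSO 1, and 4 and 3381 without DMSO 3. In HU, where 6 members and 5541 genes were called, 2 and 3095 were called without HU 1, and 5 and 5204 without DMSO 3. Without Gem 2, Nfkb2 was 2.24 higher in Gem without passing.

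Over the 10 members the median log2 difference was -0.38 in Gem and -0.32 in HU, beside -0.25 and -0.30 over all tested genes. After scaling the members' median was -0.094 and 0.029. For the 9 members other than Nfkb2 it was -0.51 and -0.39 as deposited, and -0.22 and -0.033 after scaling. The comparisons of Gem and HU with DMSO share the same DMSO libraries, so the likeness of their values is not 2 independent measurements.

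The drugs could be compared directly with each other. Between Gem and HU 0 of the 10 members were called by limma, where 0.101% of all genes were. At an unadjusted p below 0.05 the count of members was also 0, and the share of all genes was not computed. For Nfkb2 the log2 difference of Gem against HU was -0.06 ± 0.21 (SE), with a 95% interval of -0.55 to 0.44, so a difference in either direction within that range is not excluded. For the other 9 members the difference ran from -0.12 for Nfkbib (95% interval -0.35 to 0.10) to 0.08 for Rel. The libraries of 9 members overlapped between the drugs, and those of Nfkb2 lay slightly lower in Gem than in HU as deposited. The share of all genes whose libraries separate between the drugs was not computed, so nothing is read from this count.

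The DMSO libraries themselves differed in the members. DMSO 3 exceeded the mean of DMSO 1 and DMSO 2 by 0.65 on the log2 scale for Nfkb2, 0.44 for Tnfaip3, 0.39 for Relb, 0.29 for Nfkbie and 0.26 for Nfkbia. For Nfkb2 this was a larger excess than that of 97.6% of tested genes, and for Nfkbia than that of 88.9%. Bcl3 (0.05), Rel (-0.0045), Nfkbib (-0.06), Rela (-0.09) and Nfkb1 (-0.18) lay nearer the median of all genes, -0.038. In the same 3 libraries Il1b stood at 3.66, 8.08 and 19.03 FPKM and Ptgs2 at 0.65, 0.22 and 9.67, while Il6 stood at 4.02, 3.25 and 2.45. These 3 genes were singled out after their values were seen.

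The rest of the pathway was read from 117 genes in 7 lists, of which 116 were found by symbol and 106 tested. As deposited 0 rose and 28 fell in Gem, and 0 rose and 48 fell in HU, by limma at an adjusted p below 0.05. Of all tested genes 23.2% and 35.5% were called lower in these comparisons, and the counts by list below are read against the same shares. At an unadjusted p below 0.05, 1 was higher in Gem and 0 in HU, and the share of all genes at that threshold was not computed. After scaling 1 rose and 0 fell in Gem, and 1 rose and 5 fell in HU. The falls as deposited depended on single libraries: in Gem 0 were called without Gem 2, 7 without Gem 1, 12 without DMSO 1 and 16 without DMSO 2, and in HU 25 without HU 1. Without DMSO 3 the counts were 26 and 43.

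Of 7 tested ligands 1 fell in Gem and 3 in HU. Tnf, a main ligand of the canonical route, stood at 42.12 to 62.4 FPKM in DMSO, 33.84 and 36.55 in Gem and 35.08 and 37.02 in HU. It fell by 0.52 on the log2 scale in Gem (limma, adjusted p = 0.0425) and by 0.49 in HU (adjusted p = 0.0369). Ltb, whose product signals through the non-canonical route, and Il18 fell in HU, by 0.96 and 0.76. Of 31 receptors and adaptors 9 fell in Gem and 15 in HU. Among them the TNF receptor gene Tnfrsf1a fell by 0.53 and 0.55, Ripk1 by 0.55 in Gem and 0.42 in HU, the Toll-like receptor adaptor Myd88 by 0.50 and 0.54, and Bcl10, an adaptor of antigen receptor signalling, by 0.30 and 0.54. None of these ligands and receptors was called after scaling.

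Of 10 tested kinases of the pathway 1 fell in Gem and 2 in HU, and 0 were called after scaling. Ikbkb, which phosphorylates I kappa B proteins, stood at 54.8 to 58.76 FPKM in DMSO and 42.06 to 45.47 with the drugs, a log2 fall by 0.37 in Gem (limma, adjusted p = 0.0142) and by 0.41 in HU (adjusted p = 0.00517). After scaling it differed by -0.06 and -0.05. Ikbkg, the regulatory subunit of that kinase, fell by 0.29 in HU. Chuk, the kinase of the non-canonical route, differed by -0.36 and -0.37 without passing. Map3k14 encodes NIK, the kinase upstream of p100 cutting, and stood at 1.81 to 2.55 FPKM in DMSO, 1.88 and 2.23 in Gem, and 2.42 and 2.22 in HU, with differences of -0.04 and 0.08, and 0.17 and 0.34 after scaling, that did not pass. It was named for that role and not by the rule for named genes, as were Irf1 and Saa3 for their calls. Tab1 and Map3k8, the others named by the rule, did not pass in either drug.

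Of 9 tested genes of the ubiquitin and proteolysis machinery 3 fell in Gem and 5 in HU. Rbck1, of the linear ubiquitin ligase, fell by 0.31 and 0.25, Cul1, of the ligase that marks I kappa B proteins, by 0.29 and 0.33, and Sharpin by 0.40 in Gem. Ube2n, which builds the chains used in signalling, fell by 0.79 in HU (limma, adjusted p = 0.00179) and remained called after scaling (-0.43, adjusted p = 0.0452). Rbx1 fell by 0.76 in HU. Of 16 other inhibitors and feedback regulators 5 fell in Gem and 7 in HU. Tnip1, which works together with A20, fell by 0.71 and 0.48, Tank by 0.51 and 0.69, and Otulin by 0.60 and 0.66, while Tax1bp1 fell by 0.28 and 0.46 and Commd1 by 0.86 in HU. Of these 16 genes 0 were called after scaling.

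A further route links DNA damage to NF-kB through modification of NEMO, the product of Ikbkg, in the nucleus. Of its 6 tested genes 1 fell in Gem and 2 in HU. Pias4, the enzyme that attaches SUMO to NEMO, fell by 0.49 in Gem (limma, adjusted p = 0.0176) and by 0.37 in HU (adjusted p = 0.0286). Parp1 fell by 0.25 in HU. Pidd1 and Erc1 did not pass. After scaling 0 genes of this route were called, and Pias4 differed by -0.19 and -0.01.

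Of 27 tested target genes 8 fell in Gem and 14 in HU, and the list's median was -0.45 and -0.55. Bcl2a1b, a survival gene with near-identical copies whose reads may be split, fell by 0.70 in Gem (limma, adjusted p = 0.00582) and by 0.84 in HU (adjusted p = 0.00108). Its copy Bcl2a1d fell by 0.45 and 1.03, Ier3 by 0.57 and 0.73, and Gadd45b by 0.46 and 0.58. In HU, Bcl2a1b, Bcl2a1d, Ier3 and Saa3 were also called lower after scaling. Irf1 was the listed gene called higher after scaling in both drugs, by 0.53 in Gem (adjusted p = 0.0418) and 0.42 in HU (adjusted p = 0.0239). As deposited it stood at 41.11 to 44.75 FPKM in DMSO, 52.85 and 47.37 in Gem, and 41.14 and 47.59 in HU.

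**Figure D5:**
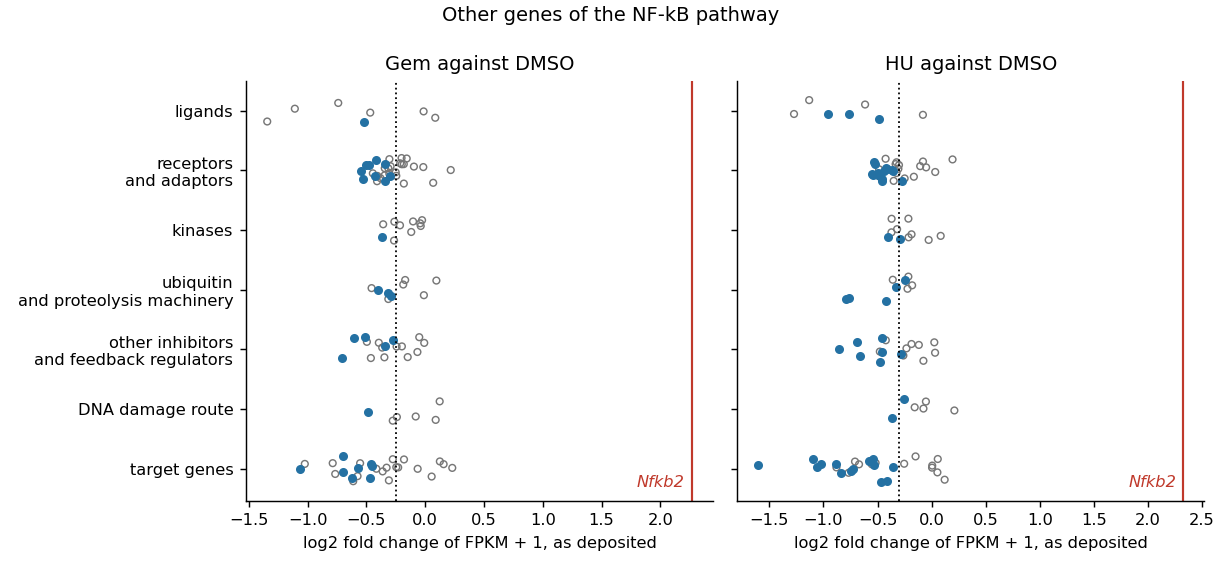
Log2 fold change of FPKM + 1 as deposited (x axis) of each tested pathway gene, by list, in Gem and HU against DMSO. Filled points are genes called as deposited and open points are not called. The solid line marks Nfkb2 and the dotted line the median of all tested genes. Nfkb2 stands at 2.27 and 2.33, while the list medians lie between -0.12 and -0.76.

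The genes whose profile over the 7 libraries was most like that of each member were found by the mean absolute difference of centred log2(FPKM + 1), over 8490 genes. For Nfkb2 they were Fos (0.14), Egr1 (0.21) and Gm45148 (0.22). Fos, which encodes a subunit of AP-1, stood at 28.08, 26.09 and 29.51 FPKM in DMSO, 121.77 and 133.5 in Gem, and 137.65 and 132.13 in HU. Egr1, an immediate early gene, stood at 1.93 to 2.54 in DMSO and 9.14 to 13.72 with the drugs. For Nfkb2 the nearest gene was thus farther away than for any other member, whose nearest genes lay at 0.016 to 0.0559.

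The nearest genes of the other subunits were Tor4a, Gsn and Vav1 for Rela, Cxxc5, Ccnf and Entpd6 for Nfkb1, Pafah1b1, Zfp869 and Crot for Rel, and Slc2a6, Zfp84 and Sqstm1 for Relb. Those of the inhibitors were Wdr53, Ebi3 and Gm4735 for Nfkbia, Slc39a7, Pitpnb and Tmem109 for Nfkbib, and Twsg1 and Tmem35b for Nfkbie. For Bcl3 they were Htra2, Hsd17b10 and Adprm, and for Tnfaip3 they were Aoah, P2ry14 and Tmem35b. Tmem35b was shared by Nfkbie and Tnfaip3, and 0 members were among another member's nearest genes.

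The other members lie, in GRCm38 with GENCODE M21 annotation, at chr3:135584655-135691547 (Nfkb1), chr11:23736847-23770970 (Rel), chr19:5637483-5648130 (Rela) and chr7:19606217-19629438 (Relb). Nfkbia lies at chr12:55489410-55492647, Nfkbib at chr7:28758251-28767512, Nfkbie at chr17:45555703-45563169, Tnfaip3 at chr10:19000910-19015657 and Bcl3 at chr7:19808462-19822770. Rela, Nfkb2 and Nfkbie lie on the plus strand and the rest on the minus strand. Nfkb2 and Rela share chromosome 19, and Relb, Bcl3 and Nfkbib share chromosome 7. Besides Nfkb2 and Nfkbib, the gene spans of Bcl3 and Nfkb1 also overlap those of other genes in that annotation. For Bcl3 these are Gm16174, at 0 to 2.95 FPKM, and Gm16175, listed at 0, and for Nfkb1 it is Gm43430, at 0.5 to 1.07.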

How the data were processed

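RNA of 7 libraries (DMSO 3, Gem 2, HU 2) was amplified with a Geo-seq protocol and made into libraries with a TruePrep kit, per the labels' protocols, which state no strand. The authors deposited 1 table of FPKM values for 52224 genes, and all 7 value columns matched a library. Tools listed without a role in the submitters' processing notes are DESeq2, HTSeq, Cufflinks 2.1.1 and Bowtie 0.12.9, and the build is mm10. Which tool made the FPKM and with which annotation is not given in the sources used here, and depth is unknown.

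limma 3.58.1 (R 4.3.3) was fitted to log2(FPKM + 1), in one model of 3 groups with a mean-variance trend and no block, over the 13865 genes that reached an FPKM of 1 in 2 or more libraries. Such fold changes understate those of low genes. P-values were two-sided and adjusted by Benjamini-Hochberg over all tested genes, with calls below 0.05. The procedure was tested on simulated data. Trimmed-mean scaling (30% of ratios and 5% of levels trimmed) and 15 other alternatives were run. Library numbers in the labels were not treated as pairs. Deviations of same-numbered libraries correlated at -0.074 to 0.055, which with so few libraries a group cannot decide whether they are pairs. Ratios, shares and places were computed within each library.

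The members and gene lists were chosen with earlier results of these data known. Genes named by rule are all members, the 3 tested genes of each list with the smallest p in each drug, and the 3 genes most like each member in profile among those with a mean FPKM of at least 5. Map3k14, Irf1, Saa3, Il1a, Il1b, Il6, Ptgs2 and neighbours or overlapping genes are named outside it. One gene that this rule names is not reported here. Start windows came from RefSeq (GRCm38.p6) and positions from GENCODE M21. Figures were drawn in Python 3.11.15 with matplotlib 3.10.9.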

Additional observations from a re-analysis of the deposited data

How the results depend on the processing

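Nfkb2 was higher and called in 15 of 16 alternatives in Gem (2.13 to 2.61, lost without Gem 2) and in 16 of 16 in HU (2.19 to 2.83). Members called in Gem, 6 as reported beside 3421 of all genes, numbered 2 with no filter (1509 genes), 3 with no trend (2132), 3 with the replicate block (2877), 1 under each of equal sums (440), trimmed mean (130) and quantile (67), and 0 to 5 with a library left out (13 to 3381). In HU, 6 beside 5541 genes became 1 under each scaling (1478, 1390 and 560) and 2 to 5 with a library left out (3095 to 5204). Pathway genes called in Gem, 28, became 6 with no filter, 10 with no trend, 2 with equal sums, 1 with trimmed-mean and 1 with quantile scaling, and 0 to 30 with a library left out. In HU, 48 became 6, 6 and 1 under equal sums, trimmed mean and quantile, and 25 to 43 with a library left out. Whether the numbers in the labels pair the libraries is not known. DMSO 3 shares its number with no drug library, so the replicate block gave Nfkb2 2.49 in Gem and 2.54 in HU, as without DMSO 3.

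Against DMSO the subunits other than Nfkb2 changed sign with scaling. In Gem, trimmed-mean and quantile scaling gave 0.084 and 0.11 for Nfkb1, 0.15 and 0.093 for Rel, 0.099 and 0.16 for Rela and 0.027 and 0.039 for Relb, and equal sums gave 0.058 for Rel. In HU, equal sums, trimmed mean and quantile gave 0.15, 0.18 and 0.24 for Nfkb1, 0.096, 0.11 and 0.040 for Rel, 0.098, 0.12 and 0.23 for Rela, and 0.068, 0.091 and 0.12 for Relb, and quantile gave 0.081 for Nfkbib. With a library left out Rel in Gem ran from -0.25 to 0.016. In Gem against HU, equal sums turned Bcl3 to -0.042, Rel to -0.038 and Rela to -0.10, and trimmed mean and quantile turned Rela to -0.024 and -0.068. With a library left out that difference ran from -0.10 to 0.27 for Bcl3, -0.21 to 0.15 for Nfkb1, -0.31 to 0.27 for Nfkbia, -0.25 to 0.036 for Nfkbie, -0.050 to 0.22 for Rel, -0.0088 to 0.081 for Rela, -0.14 to 0.13 for Relb and -0.15 to 0.11 for Tnfaip3. In these 16 alternatives all other differences of members against DMSO kept their direction, and the cause of these changes was not tested. With 2 drug libraries a group, small differences between the drugs were not resolved, and depth is unknown.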

Other observations

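Among the DMSO libraries Nfkb2 was highest in DMSO 3 together with Relb, Tnfaip3, Nfkbie and Nfkbia, each 0.26 to 0.65 above the mean of DMSO 1 and DMSO 2 on the log2 scale. In the drug libraries Nfkb2 stood at 114.59 to 122.8 FPKM, while Nfkbia stood at 93.81 to 140.61, Nfkbie at 14.06 to 18.32 and Tnfaip3 at 9.2 to 11.18, each below its level in every DMSO library as deposited. After trimmed-mean scaling Nfkbie and Tnfaip3 in both drugs, and Nfkbia in HU, overlapped DMSO. Relb, at 12.48 to 15.29, overlapped DMSO. As deposited, Relb, Tnfaip3, Nfkbie and Nfkbia lay below DMSO 2 in every drug library, while Relb exceeded DMSO 1 (14.36) in Gem 2 (14.82) and HU 2 (15.29). After scaling Relb stood at 13.5 and 16.4 in Gem and 14.3 and 17.1 in HU, against 12.4 and 13.8 in DMSO 1 and DMSO 2. Nfkbie then exceeded both in Gem 2 (18.23) and HU 2 (20.44), against 18.18 and 17.44. Nfkbia exceeded both in HU 2 alone, and Tnfaip3 in no drug library. Whether Relb, Nfkbie or Nfkbia exceeded both DMSO 1 and DMSO 2 in any drug library thus depended on the scaling. For Tnfaip3 it did not. DMSO 3 is 1 library, so its differences have no replicate.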
